A study of Sus scrofa with 36 samples.

Results

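Expression of the cardiac thin filament was followed in neonatal pig hearts through 6 of the 9815 genes with counts, namely ACTC1, TPM1, TPM2, TNNC1, TNNI3 and TNNT1. They were chosen by name, with earlier results of these data known, and all 6 passed the filter on low counts, as did 5526 genes in all. The hearts came from 12 domestic Yorkshire pigs at postnatal days 1, 3, 7 and 28 (P1, P3, P7 and P28), with 3 pigs at each age. Total RNA of heart tissue, which holds myocytes and other cells, was sequenced by 1 company as the batch annotated "cd". The 3 pigs of an age carry the numbers 4, 5 and 6, which were not taken to pair pigs across ages. The samples were taken to follow RNA levels while the newborn pig heart matures.

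The thin filament is the actin cable of the sarcomere, the contractile unit of muscle. Tropomyosin lies along the actin and covers the sites that myosin binds, and the troponin complex moves it away when calcium rises. Troponin C binds the calcium, troponin I inhibits contraction when calcium is low, and troponin T holds the complex on tropomyosin. Several of these proteins exist as isoforms from separate genes, and mammalian hearts exchange some fetal isoforms for adult ones around birth. ACTC1 encodes the main sarcomeric actin of the heart, TPM1 encodes alpha-tropomyosin and TPM2 beta-tropomyosin. TNNC1 encodes the troponin C shared by heart and slow skeletal muscle, TNNI3 the cardiac troponin I, and TNNT1 the slow skeletal troponin T. The isoform partners TNNI1 and TNNT2, and the other sarcomeric actin gene ACTA1, were not analysed here, so fetal-to-adult exchange can be followed only as far as these 6 genes allow.

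ACTC1 (ENSSSCG00000004803) lies at chr1:136281167-136286545, TPM1 (ENSSSCG00000004570) at chr1:108986981-109019440 and TPM2 (ENSSSCG00000005316) at chr1:236402247-236410471, as the deposited gene table places them. TNNC1 (ENSSSCG00000011441) lies at chr13:34591210-34594339. TNNT1 (ENSSSCG00000025353) at chr6:59347582-59365589 and TNNI3 (ENSSSCG00000043687) at chr6:59366828-59382728 are neighbours, with 1238 bases between them. The table does not name its build. The spans of all 6 genes, and of 99.9% of 4574 symbols compared, overlap those of the same symbols in RefSeq's annotation of the later pig assembly. The submitters' processing notes name Sscrofa10.2, so the notes and the spans differ. The TNNI3 row overlaps that of DNAAF3 (ENSSSCG00000042884, chr6:59366829-59378150), which held 98.6% to 99.3% as many counts in each library. The rows of SYT5 and PTPRH, which overlap the other end of TNNI3, held 2 to 12 and 9 to 24 counts. The TNNI3 values below may hold DNAAF3 reads, which cannot be told apart here.

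Total counts ranged from 8887176 to 14883849 per library, and the 6 genes held 4.59% to 6.23% of them. Genes named Metazoa_SRP (signal recognition particle RNA) held 7.09% to 19.7%. Levels are given as CPM (the usual counts-per-total unit of RNA-seq, here with the library totals scaled by TMM, which allows for differences in RNA composition), as mean ± SD over 3 pigs. The tests of a single gene used edgeR's quasi-likelihood test with all 4 ages in 1 fit. A call was a Benjamini-Hochberg adjusted p under 0.05 over all genes tested. With bulk tissue, fewer cells of a type and less RNA per cell cannot be told apart.

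TNNI3 and TNNC1 were called higher at P28 than at P7, and ACTC1 was called lower at P28 than at P1. Neither tropomyosin gene nor TNNT1 was called by this fit in any comparison. Between P7 and P28, 2 of the 6 genes were called, both higher, against 18.8% of all genes tested, or 8.34% called higher. Between P1 and P28, 1 of 6 was called, lower, against 15.3% of all genes, or 7.93% called lower. None of the 6 was called by edgeR between P1 and P3 (background 0.0543%), between P1 and P7 (2.01%), between P3 and P7 (2.21%) or between P1 and the 3 later ages together (2.46%). At an unadjusted p of 0.05 or less, each of these 4 comparisons held 1 of the 6 genes, against 15.2%, 16.1%, 18.9% and 16.9% of all genes. These were TPM1 for P3 and for the later ages together, and TNNI3 for P7 against P1 and against P3. In the test of any difference among the 4 ages, TNNI3 was called (adjusted p = 0.0154, edgeR), against 21.4% of all genes, and ACTC1 (0.0791) and TNNC1 (0.0880) were not. These 3 genes had an unadjusted p of 0.05 or less in that test, as did 37.5% of all genes. The TNNI3 call of that test was lost without P7 pig 5 and without P7 pig 6, which left 0 of the 6 genes called. As a list the 6 genes had a median log2 fold change of -0.46 from P1 to P28 and of -0.12 from P7 to P28, where the medians of all genes were 0.0035 and 0.013.

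**Figure D1:**
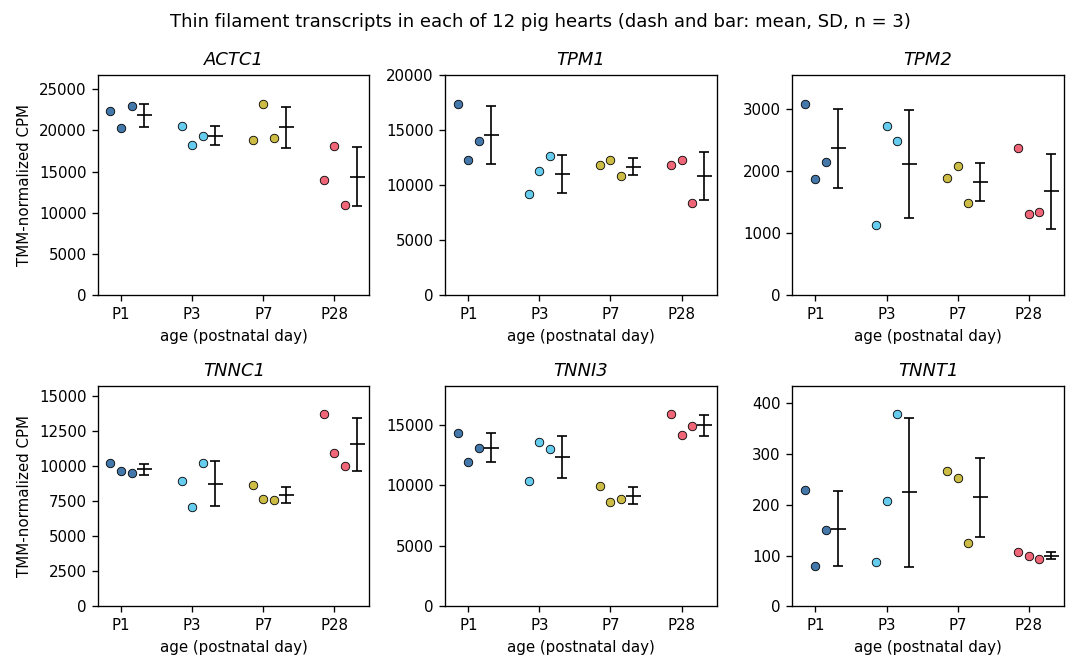
TMM-normalized CPM (y axis, from 0) of the 6 genes at each age (x axis), with 1 point per pig and the mean and SD of 3 pigs as dash and bar. The 3 P28 hearts lie above the 3 P7 hearts for TNNC1 and TNNI3, and below the P1 and P7 hearts for ACTC1.

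ACTC1, the actin of the filament, was lower at P28. The 3 hearts held 22349, 20259 and 22889.7 CPM at P1, 20513, 18209 and 19275 CPM at P3, and 18780.2, 23241 and 19035 CPM at P7. At P28 they held 14033, 18108 and 11007 CPM. Every P28 heart lay below every heart of the other ages, although P28 pig 5 was only just below P3 pig 5. The means were 21833 ± 1389 CPM at P1, 19333 ± 1153 at P3, 20352 ± 2505 at P7 and 14383 ± 3564 at P28 (SD, n = 3 each). From P1 to P28 the log2 fold change was -0.60 (SE 0.17, edgeR adjusted p = 0.0340), a level 1.52-fold lower at P28. From P7 to P28 it was -0.50 (SE 0.17), with an adjusted p of 0.0600 that missed the threshold. This step had an adjusted p under 0.05 in 5 of 24 alternatives. These were DESeq2 (adjusted p = 0.0251), limma voom (0.0411), upper quartile normalization (0.0495), plain library sizes (0.0254) and the fit without P28 pig 5 (log2 fold change -0.69, adjusted p = 0.0216). With each of the 12 pigs left out of the edgeR fit, it ran from -0.69 to -0.34, with 1 call and adjusted p up to 0.197. From P1 to P3 and from P1 to P7 the log2 fold changes were -0.18 and -0.10 (SE 0.17 each). The P28 call was lost without P1 pig 4 (adjusted p = 0.0734), P1 pig 5 (0.0602), P1 pig 6 (0.106), P28 pig 4 (0.0883) or P28 pig 6 (0.120), by the same edgeR test. The share of Metazoa_SRP counts also separated these ages, at 12.9% to 19.5% in the P1 hearts and 7.88% to 12.0% in the P28 hearts. With those genes left out, the ACTC1 log2 fold change was -0.60 (adjusted p = 0.0285).

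TPM1, the tropomyosin with the higher counts, held 17391, 12241 and 13992 CPM at P1 and 9167, 11267 and 12611 CPM at P3. It held 11859, 12314 and 10848 CPM at P7 and 11865, 12249 and 8368 CPM at P28. P1 pig 4 was the highest of the 12 hearts and P28 pig 6 the lowest, and the ages overlapped in every comparison with P1. The log2 fold changes from P1 were -0.40 at P3, -0.32 at P7 and -0.43 at P28 (SE 0.18 each), and the adjusted p of the last was 0.135. Without P1 pig 4 they were -0.24, -0.17 and -0.28, and without P28 pig 6 the last was -0.27.

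TPM2, the gene of beta-tropomyosin, held 1124.9 to 3080.4 CPM, and the lowest and the highest heart were P3 pig 4 and P1 pig 4. Its means were 2364 ± 634 CPM at P1, 2109 ± 861 at P3, 1817 ± 304 at P7 and 1669 ± 599 at P28 (SD, n = 3 each). The log2 fold change from P1 to P28 was -0.50 (SE 0.32, adjusted p = 0.309), with -0.27 without P1 pig 4 and -0.84 without P28 pig 4, so the fall of its mean was within the spread between pigs. Within a heart, TPM2 counts were 0.106 to 0.241 of TPM1 counts, not corrected for the gene models of 1611 and 7669 bases. The mean log2 ratio of TPM2 to TPM1 was -2.64 at P1, -2.47 at P3, -2.70 at P7 and -2.73 at P28, and the difference between P28 and P1 was -0.10 (SE 0.28). No shift between the alpha and the beta gene was detectable with 3 pigs per age (exact permutation test over all splits of the 12 hearts, one-sided, p = 0.812).

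TPM4 encodes a nonmuscle tropomyosin and was the only measured gene of 12 listed paralogs of the filament. Its level was 638 ± 114 CPM at P1, 513 ± 307 at P3, 556 ± 22.5 at P7 and 223 ± 9.5 at P28 (SD, n = 3 each). Every P28 heart (214 to 233 CPM) lay below every other heart (251 CPM or more). On the log2 scale P28 differed from P1 by -1.51 (SE 0.32, adjusted p = 0.00800) and from P7 by -1.32 (SE 0.32, adjusted p = 0.0129). Of the counts on TPM1, TPM2 and TPM4, TPM4 took 3.47% to 3.85% at P1, 1.76% to 5.34% at P3, 3.55% to 4.42% at P7 and 1.48% to 2.24% at P28. P3 pig 5, with 1.76%, lay among the P28 hearts. The cells of the tissue that held TPM4 RNA were not identified. TPM1 took 79.1% to 88.9% in the 12 hearts. These are shares of counts, not corrected for the gene models of 7669 (TPM1), 1611 (TPM2) and 3000 bases (TPM4).

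Among the troponins, TNNC1 was higher at P28 than at P7. The hearts held 10212, 9642 and 9488 CPM at P1, 8920.1, 7061 and 10257 CPM at P3, and 8629.8, 7686 and 7586 CPM at P7. At P28 they held 13697, 10933 and 10022 CPM. All P7 hearts lay below all P1 and all P28 hearts, while P28 overlapped P1. The means were 9781 ± 381 CPM at P1, 8746 ± 1605 at P3, 7968 ± 576 at P7 and 11551 ± 1914 at P28 (SD, n = 3 each). From P7 to P28 the log2 fold change was 0.54 (SE 0.16, edgeR adjusted p = 0.0338), a level 1.45-fold higher. From P1 to P7 it was -0.30 (SE 0.16, adjusted p = 0.398), and from P1 to P28 0.24 (SE 0.16, adjusted p = 0.328), or 0.093 without P28 pig 4. The call between P7 and P28 was lost when P1 pig 6 (adjusted p = 0.0510), P7 pig 4 (0.0594), P7 pig 5 (0.116), P7 pig 6 (0.0992), P28 pig 4 (0.125) or P28 pig 5 (0.0637) was left out of the edgeR fit.

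TNNI3 had the smallest p of the 6 genes between P7 and P28. At P1 the hearts held 14334, 11935 and 13085 CPM, and at P3 10394, 13606 and 13010.1 CPM. At P7 they held 9969.7, 8664 and 8834 CPM, and at P28 15874, 14174 and 14878 CPM. The P7 hearts were the 3 lowest of the 12, below every P1, P3 and P28 heart. The means were 13118 ± 1199 CPM at P1, 12337 ± 1709 at P3, 9156 ± 710 at P7 and 14975 ± 854 at P28 (SD, n = 3 each). From P7 to P28 the log2 fold change was 0.71 (SE 0.14, edgeR adjusted p = 0.00403), a level 1.64-fold higher. With each of the 12 hearts left out in turn it was 0.66 to 0.78, with adjusted p from 0.00256 to 0.0238. From P1 to P7 it was -0.52 (SE 0.14, adjusted p = 0.0674) and from P3 to P7 -0.43 (SE 0.14, adjusted p = 0.121), and neither passed. By the same edgeR test, the first was called without P3 pig 4 (adjusted p = 0.0431, 3.03% of all genes called) and without P3 pig 5 (0.0484, 5.95%). The second was called without P3 pig 4 (0.0464, 4.47%). From P1 to P28 the log2 fold change was 0.19 (SE 0.14, adjusted p = 0.371), so the P28 level was not distinguished from the P1 level.

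TNNT1 was the gene with the lowest counts of the 6. Its 3 hearts per age held 228, 80.2 and 149.6 CPM at P1, 87.3, 208 and 378 CPM at P3, 266, 252 and 125 CPM at P7, and 107, 99.0 and 92.8 CPM at P28. The P28 hearts were close together and below all P7 hearts, but P1 pig 5 and P3 pig 4 were lower than any of them. The log2 fold change from P7 to P28 was -1.11 (SE 0.47, adjusted p = 0.116), and its adjusted p was under 0.05 in 1 of 24 alternatives. That was the edgeR fit with only these 2 ages (-1.13, adjusted p = 0.0127), where 31.7% of all genes were called. From P1 to P28 the log2 fold change was -0.62 (SE 0.46, adjusted p = 0.393), and it was -0.21 without P1 pig 4 and -0.93 without P1 pig 5. TNNT1 was also called in the test of any difference among the ages without P3 pig 4, where 29.8% of all genes were called. The SD was 7.22 CPM at P28 and 74.1, 146 and 77.5 CPM at P1, P3 and P7.

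Counting hearts rather than tests, 4 of the 6 genes had no overlap between P7 and P28, TNNC1 and TNNI3 with P28 above and ACTC1 and TNNT1 with P28 below. Of all genes tested, 47% had none. Between P1 and P28 only ACTC1 of the 6 had no overlap, against 44.4% of all genes. Between P1 and P7 both TNNC1 and TNNI3 had none (30.6%), between P3 and P7 TNNI3 had none (22.9%), and between P1 and P3 the ages overlapped for all 6 genes (16%). At an unadjusted p of 0.05 or less, the 4 genes without overlap passed between P7 and P28, against 33% of all genes, and ACTC1 and TPM1 passed between P1 and P28, against 30.7%. The study's own threshold, an unadjusted p of 0.05 or less with an absolute log2 fold change over 0.5, passed the same 4 genes between P7 and P28 (25.1% of all genes). It passed ACTC1 between P1 and P28 (23.1%) and TNNI3 between P1 and P7 (11.7%). None of the 6 passed it between P1 and P3 (10.6%), between P3 and P7 (13%) or between P1 and the later ages together (9.41%).

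**Figure D2:**
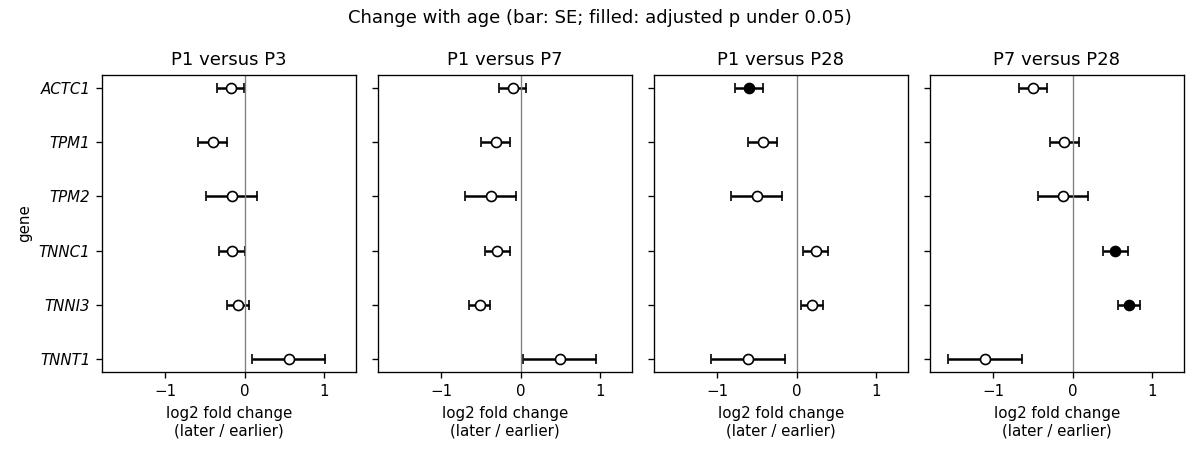
Log2 fold change of the later against the earlier age (x axis) for the 6 genes (y axis) in 4 comparisons, with the SE of the edgeR fit as bars and filled points for an adjusted p under 0.05. The filled points are ACTC1 from P1 to P28 at -0.60, and TNNC1 and TNNI3 from P7 to P28 at 0.54 and 0.71.

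Levels of different genes were compared per length, as TMM-normalized CPM per kilobase of the gene model. ACTC1 came first at P1, P3 and P7 (15606 ± 993, 13819 ± 824 and 14548 ± 1791 CPM per kb), above TNNC1 (10188 ± 397, 9110.5 ± 1672 and 8299.5 ± 600), with no overlap between their hearts at these ages. At P28 the order of the means turned, with TNNC1 at 12032 ± 1993 and ACTC1 at 10281 ± 2547 CPM per kb, but the hearts of the 2 genes overlapped. TNNI3 followed at 1738 to 3184 CPM per kb and lay above TPM1 (1091 to 2268) in every age, without overlap within an age. TPM1 and TPM2 (698 to 1912 CPM per kb) overlapped at P1, P3 and P28 and not at P7. TNNT1 was last at 18.5 to 87.0 CPM per kb. The gene models of TNNI3 and TPM1 are long, at 4985 and 7669 bases against 960 bases for TNNC1, which lowers their values per length.

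**Figure D3:**
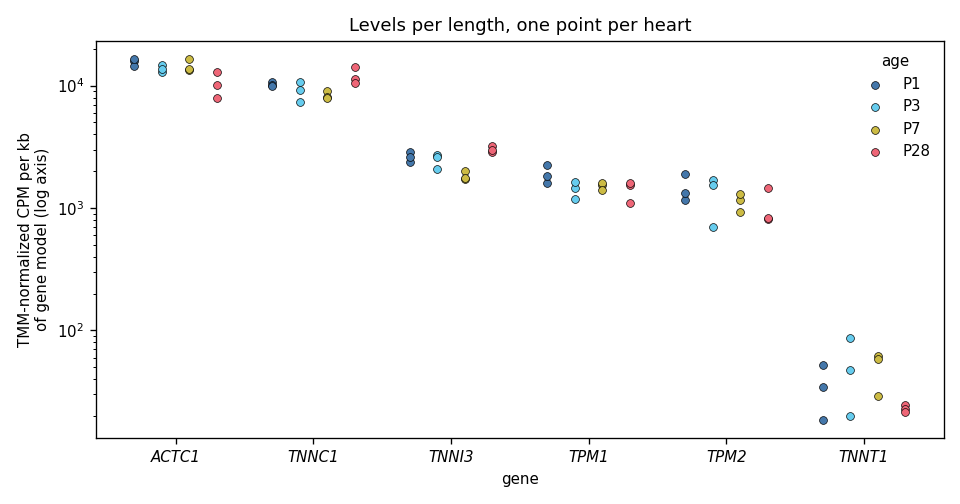
TMM-normalized CPM per kilobase of gene model (log y axis) for the 6 genes (x axis), with 1 point per pig, coloured by age. ACTC1 and TNNC1 lead, and the TNNT1 hearts, at 18.5 to 87.0 CPM per kb, lie below all other genes.

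A ratio of 2 genes within a library does not depend on the library's size. Counts of TNNC1 were 0.457, 0.476 and 0.415 of the ACTC1 counts in the P1 hearts, 0.435, 0.388 and 0.532 at P3, 0.460, 0.331 and 0.399 at P7, and 0.976, 0.604 and 0.911 at P28. Every P28 heart lay above the other 9, with P28 pig 5 nearest to them. The mean log2 ratio was -1.16 at P1, -1.16 at P3, -1.35 at P7 and -0.30 at P28. The difference between P28 and P1 was 0.86 (SE 0.22, 1.81-fold), and that between P28 and P7 was 1.05 (2.07-fold). Age took 79.2% of the sum of squares, where 27.3% is expected by chance. The exact permutation test over all 15400 splits gave p = 0.00864, and 0.0605 after adjustment over the 7 ratios fixed for this test. With 3 hearts against 3, the exact two-sided test of P1 against P28 gave 0.1, the smallest p that it allows. The TNNI3 counts, in a ratio chosen after its values were seen and therefore not tested, were 0.572 to 0.641 of the ACTC1 counts at P1, 0.507 to 0.747 at P3, 0.373 to 0.531 at P7 and 0.783 to 1.35 at P28.

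The other 5 ratios moved less against their spread. The log2 ratio of TNNI3 to TNNC1 was 0.42 at P1, 0.50 at P3, 0.20 at P7 and 0.39 at P28, with an adjusted p of 0.614 in the exact permutation test over the 4 ages. The difference between P28 and P1 was -0.034 (SE 0.12, exact two-sided permutation p = 0.8). The TPM1 to ACTC1 ratio was -0.60, -0.82, -0.80 and -0.40 at the 4 ages (adjusted p = 0.199, exact permutation test), and its P28 hearts lay above the P7 hearts. The TPM2 to ACTC1 ratio was -3.24, -3.30, -3.49 and -3.13 (adjusted p = 0.867, exact permutation test). TNNT1, the slow skeletal troponin T, was 0.00625 to 0.0291 of the TNNI3 counts. That log2 ratio was -6.55 ± 0.63 at P1, -6.01 ± 0.90 at P3, -5.49 ± 0.57 at P7 and -7.23 ± 0.083 at P28 (SD, n = 3 each). It gave p = 0.0487 and 0.170 after adjustment in the exact permutation test, and P28 lay below all P7 hearts but overlapped P1, where pig 5 was at -7.21. The TNNT1 to TNNC1 ratio ran likewise, at -6.12, -5.51, -5.29 and -6.84 (adjusted p = 0.199, exact permutation test).

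**Figure D4:**
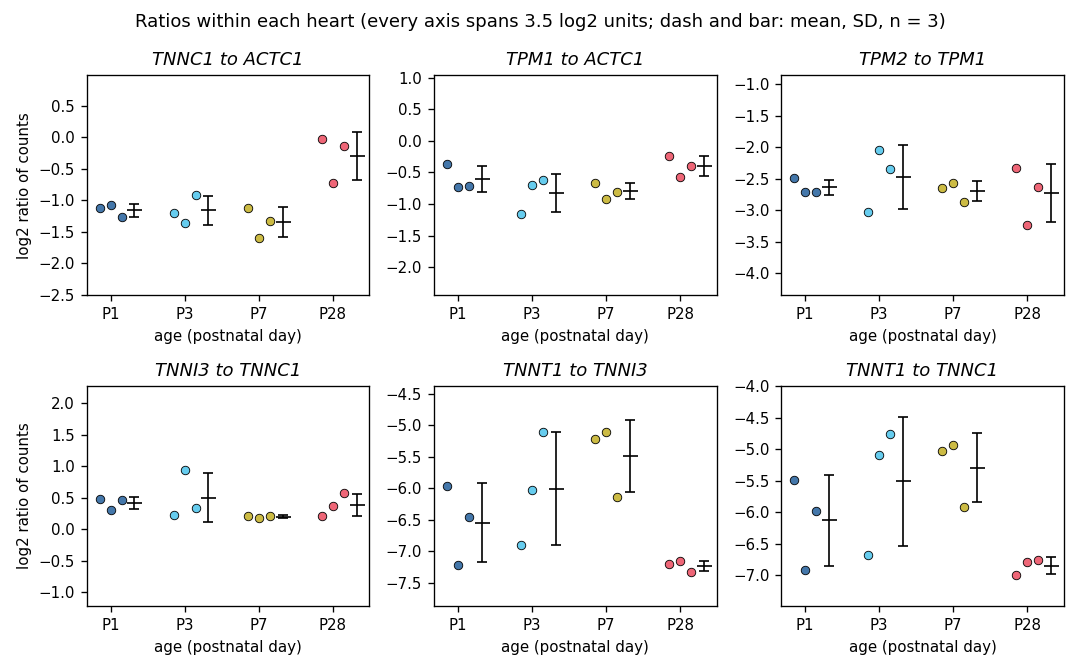
Log2 ratio of the counts of 2 genes within each heart (y axis, 3.5 units in every panel) at each age (x axis), with 1 point per pig and the mean and SD of 3 pigs. The P28 hearts are above all others for TNNC1 to ACTC1 and below all P7 hearts for both TNNT1 ratios.

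Across the 12 hearts the log2 CPM of TNNC1 and TNNI3 had a Pearson r of 0.70, TPM1 and TPM2 one of 0.73, TNNT1 and TPM2 one of 0.66, ACTC1 and TPM1 one of 0.63, and ACTC1 and TNNI3 one of -0.50. These values describe hearts that share ages and a sequencing batch. Among 3332 genes with a symbol and a mean of at least 10 CPM, ZDHHC3 ran most like ACTC1 (r = 0.91), EIF1B most like TNNC1 (0.92), MAP1A most like TNNT1 (0.92), GNPDA1 most like TPM1 (0.88) and MUL1 most like TPM2 (0.89). DNAAF3 had an r over 0.99 with TNNI3 (the rows overlap and hold nearly the same counts), and FAM167B came next (0.94). The mitochondrial creatine kinase gene CKMT2 was among the 3 genes most like TPM1 (0.88).

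Genes that set the length, capping and turnover of actin filaments were taken from a list of 31, of which 12 were measured. From P1 to P28 1 rose and 3 fell, where 15.3% of all genes were called and 7.93% were called lower. XIRP1, which binds and stabilizes actin at cell junctions, rose (log2 fold change 1.12, SE 0.35, adjusted p = 0.0478). TMOD2, a tropomodulin that caps pointed ends, fell by 0.95 (SE 0.22, adjusted p = 0.0128). CFL1, a cofilin that severs actin filaments, fell by 0.89 (SE 0.19, adjusted p = 0.00860), and CAP1, which recycles actin monomers with cofilin, fell by 0.59 (SE 0.18, adjusted p = 0.0436). From P7 to P28 also 1 rose and 3 fell, where 18.8% of all genes were called. The formin FHOD3, which builds cardiac thin filaments, was measured at 1504 to 2392 CPM and had a log2 fold change of 0.19 (SE 0.17) from P1 to P28. The median of the 12 was -0.23 from P1 to P28.

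Of 20 cardiac transcription factors, 5 were measured (MEF2A, THRB, GATA6, TEAD1 and ESRRA), and edgeR called 0 of them between P1 and P28, with 2 at an unadjusted p under 0.05 (15.3% and 30.7% of all genes). GATA6, a zinc finger factor of the heart, and ESRRA, a nuclear receptor of energy metabolism genes, were called higher at P28 than at P7 (18.8% of all genes were called), by 0.94 (SE 0.20, adjusted p = 0.00756) and 0.58 (SE 0.16, adjusted p = 0.0248) on the log2 scale.

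Other genes that mark cardiomyocytes were measured for 8 of 30. Like TNNC1 and TNNI3, their summed level was higher in all P28 than in all P7 hearts. Its mean was higher at P3 than at P1, where those of TNNC1 and TNNI3 were lower. The P1 and P3 hearts overlapped for the sum and for both genes, and neither gene was called there. The sum was 41480 to 48651 CPM at P1, 39414 to 55836 at P3, 36113 to 42671 at P7 and 56768 to 59929 at P28. CKM, the muscle creatine kinase, and MYBPC3, the cardiac myosin-binding protein C, rose from P1 to P28 (log2 fold change 1.54, SE 0.33, adjusted p = 0.00885, and 0.57, SE 0.14, adjusted p = 0.0158). Both also rose from P7 to P28, and the other 6 passed in neither comparison, where 15.3% and 18.8% of all genes were called. Of these 6, CKMT2, FABP3 and NPPB had log2 fold changes of -0.78, -0.45 and -0.24 from P1 to P28, and the median of the 8 was 0.031. MYL3, an essential myosin light chain found in ventricles, was at 10462 to 17597 CPM in the 12 hearts. The chamber of the tissue was not tested.

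Markers of other cells moved as well, in comparisons where 15.3% (P1 to P28) and 18.8% (P7 to P28) of all genes were called. The 2 measured of 10 fibroblast genes, FBN1 and TCF21, both fell from P1 to P28 (log2 fold change -1.82 and -1.05, SE 0.16 and 0.14), where 7.93% of all genes were called lower. Both also fell from P7 to P28 (-1.88 and -0.74, edgeR adjusted p = 0.000141 and 0.00395). FBN1 rose from P3 to P7 (0.70, edgeR adjusted p = 0.0379), where 2.21% of all genes were called. The summed level of FBN1 and TCF21 was 3636 to 4040 CPM at P1, 1916 to 2816 at P3, 3665 to 4233 at P7 and 972 to 1214 at P28. Of 3 measured of 10 endothelial genes, TEK rose from P1 to P28 (0.53, SE 0.15), while TIE1 and CDH5 were at -0.32 and -0.35 without a call. TIE1 fell from P7 to P28 (-0.71, SE 0.20), and the sum of the 3 ran from 542 to 750.2 CPM in all hearts. Of 3 measured of 10 smooth muscle and pericyte genes, MYLK fell from P7 to P28 (-0.80, SE 0.16), while PDGFRB and NOTCH3 were at 0.011 and -0.66 without a call, and the sum was 280.3 to 1281 CPM. Of 9 leukocyte genes 3 were measured and 2 tested, with no call by edgeR between P1 and P28 and 1 at an unadjusted p under 0.05 (15.3% and 30.7% of all genes). Their sum was 473 to 792 CPM, and the B cell genes CD79A and MS4A1 were at 351 to 636 and at 0 to 1.93 CPM. Of 17 skeletal muscle genes 3 were measured, with a sum of 1.17 to 6.97 CPM and PAX7 at 0 counts in every heart. None of 6 erythroid genes was analysed here. The part of these cell markers in the changes of ACTC1, TNNC1 and TNNI3 was not tested.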

How the data were processed

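Total RNA of heart tissue from 12 pigs (batch cd, 3 per age, separate animals) was depleted of rRNA and sequenced as paired ends. The authors deposited raw read counts per gene with no normalization. The submitters' processing notes name STAR 2.7.9a, MultiQC 1.11 and Sscrofa10.2, and the counter, its strand setting and the annotation are not given in the sources used here. The labels and the paper name different stranded library kits. The overlapping rows of DNAAF3 and TNNI3 hold nearly the same counts, so reads there appear to have been counted for both. The gene table covers 4 chromosomes, and 1 last line without counts was left out. Of the 6 genes, 5 were found by the name in the table and TPM2 by its gene ID, since its row has no name. Only the gene counts were used, since the miRNA table holds no values for these genes and the back-splice tables name no host genes.

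Genes with at least 10 counts in at least 3 libraries were kept. edgeR 4.0.16 (TMM, glmQLFit and glmQLFTest, R 4.3.3) was fitted to all 12 libraries without covariates. P1 was compared with each later age and with these together, P3 with P7, and P7 with P28. Log2 ratios of counts used a prior of 2 counts and were tested by exact permutation of ages, adjusted over 7 ratios. Python 3.11.15 and matplotlib 3.10.9 made the plots. The scripts were tested on simulated data. The alternatives were other scalings and tests (DESeq2 1.42.0, limma 3.58.1 voom), filters, thresholds, gene sets, the replicate number as a block and each library left out.

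The 6 genes, the companion lists and the marker lists were chosen with earlier results of these data known. All 6 genes are named. From each companion list, genes called between P1 and P28 are named, up to 6 by smallest p, and the 3 genes most like each member were found by Pearson r. FHOD3, GATA6, ESRRA, MYL3, TIE1, MYLK, CD79A, MS4A1 and other list members with values were named after their values were seen. Each of the 6 genes had at least 942 counts in every library.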

Additional observations from a re-analysis of the deposited data

How the results depend on the processing

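The call of TNNI3 between P7 and P28 held under all 24 alternatives, at log2 fold changes of 0.58 (plain library sizes) to 0.78. The ACTC1 call between P1 and P28 held under 18 of 24, and the TNNC1 call between P7 and P28 under 17 of 24. ACTC1 was also lost with the 2 ages compared only (0 of the 6 genes called, against 22.5% of all genes, log2 fold change -0.61, adjusted p = 0.0541). TNNC1 was also lost with plain library sizes (0.40, adjusted p = 0.114), which were added after the data were seen and put the median log2 fold change of all genes at 0.13 between P1 and P7 and at -0.12 between P7 and P28 (-0.0074 and 0.013 with TMM). Leaving out each pig in turn gave 0 to 1 genes called between P1 and P28 (8.42% to 25.6% of all genes), 0 to 1 between P1 and P7 (0.383% to 5.95%), 0 to 1 between P3 and P7 (0.291% to 4.47%), 1 to 2 between P7 and P28 (10.6% to 28.3%) and 0 to 2 in the test of any difference among the ages (13% to 30.9%).

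Shares of all genes called under the same setting stand in parentheses. Between P1 and P7, 1 gene (TNNI3) was called by DESeq2 (6.59%), by limma voom (3.6%), with the 2 ages compared only (6.58%) and at the study's unadjusted threshold (11.7%), where 4 genes passed between P7 and P28 (25.1%). DESeq2 also called 1 gene (TNNI3) between P3 and P7 (6.57%) and 3 genes (ACTC1, TNNC1 and TNNI3) in the test of any difference (32.3%), where limma voom called 2, ACTC1 and TNNI3 (21.4%). Between P7 and P28, DESeq2 (23.5%), limma voom (19.2%) and upper quartile normalization (18.8%) each called ACTC1, TNNC1 and TNNI3, and the fit of the 2 ages alone (31.7%) called TNNC1, TNNI3 and TNNT1. Causes of these differences were not tested, apart from the threshold. The replicate number as a block changed no call of the 6 genes (1 called between P1 and P28, 2 between P7 and P28). Deviations from the age mean had an r over 0.1 in 5 of 18 same-numbered pairs of libraries (range -0.19 to 0.33). Of 36 other pairs, 6 had one (-0.26 to 0.25). The same-numbered pairs of P1 and P28 were at 0.33, 0.14 and 0.16. The numbers were not taken to pair the pigs, but a pairing was not excluded.

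Values that changed sign had not been called, and stayed uncalled. With plain library sizes ACTC1 from P1 to P7 was 0.041 and TNNT1 from P3 to P7 0.061, and with limma voom TNNT1 from P3 to P7 was 0.094. With each pig left out, log2 fold changes ran from -0.00073 to 0.13 for ACTC1, -0.46 to 0.52 for TNNT1, -0.040 to 0.18 for TPM1 and -0.52 to 0.013 for TPM2 from P3 to P7. From P1 to P3 they ran from -0.16 to 0.017 for TNNI3, -0.029 to 0.98 for TNNT1 and -0.39 to 0.13 for TPM2. TNNT1 from P1 to the later ages together ran from -0.17 to 0.56, and from P7 to P28 TPM1 ran from -0.20 to 0.047 and TPM2 from -0.45 to 0.038. The ratios from P1 to P28 ran from -0.13 to 0.052 (TNNI3 to TNNC1), -0.18 to 0.44 (TPM2 to ACTC1) and -0.30 to 0.16 (TPM2 to TPM1). The TNNC1 to ACTC1 ratio missed the adjusted threshold in all settings, with a range of 0.73 to 1.07 and adjusted p from 0.0595 to 0.244 (exact permutation test).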
